A study of Homo sapiens with 2 samples.

Results

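Nerve cells receive growth factors through a small set of surface receptors, and 9 genes of this signalling are described here. They are the ligand BDNF, the neurotrophin receptors NTRK2, NTRK3 and NGFR, the receptor RET with its co-receptors GFRA1 and GFRA2, and the receptor tyrosine kinases KIT and ERBB4. They were taken by symbol from the 61487 genes listed for both libraries, and all 9 were found once. The sample is a pair of cultures of H9 (WA09), a human embryonic stem cell line, differentiated toward serotonin neurons. Both carry EGFP knocked into the TPH2 gene, which encodes the enzyme of neuronal serotonin synthesis, and EGFP-labelled cells were sorted at day 42. Purmorphamine, an agonist of sonic hedgehog signalling, was used in the protocol. For stained cells at day 42 the study names a low dose with wild-type cells and a high dose with FOXA2 knockout cells. The dose for each library is not given in the sources used here. The WT library has the reporter only, and the FKO library also has a FOXA2 knockout, an indel with a premature stop in 1 selected clone. Each was measured once with the 10x Genomics 3' kit, which tags each captured molecule with a unique molecular identifier (UMI).

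The library labelled WT had 123064653 UMIs in 11052 barcodes, and the library labelled FKO had 70588747 UMIs in 8806 barcodes. Filtering left 5746 and 6979 cells, with medians of 12441 and 6936 UMIs. The libraries shared 21 barcodes before filtering and 5 after it. FOXA2, the targeted gene, had 334 UMIs under the WT label and 1301 under the FKO label. Per 1000000 UMIs of each library these are 4.36 and 22.4 counts (CPM), so the level went against the label, although a 3' count does not show an indel. Other floor plate markers were split, with SHH at 5.98 and 2.78 CPM and CORIN at 3.38 and 0.81 CPM, but FOXA1 at 2.52 and 9.09 CPM and NTN1 at 5.41 and 11.8 CPM. Whether the labels were exchanged cannot be told from these values. For this reason each library goes by its label below, and all directions rest on it. With 1 library per genotype no test between genotypes was possible. The 95% intervals in brackets are exact and cover counting error only. Unless a sentence says otherwise, where a pair of values is joined by "and" the library labelled WT comes before the library labelled FKO.

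As background, BDNF is the preferred ligand of NTRK2 (TrkB), neurotrophin 3 is that of NTRK3 (TrkC), and NGFR (p75) binds all neurotrophins with low affinity. Ligands of the GDNF family bind a GFRA co-receptor, GFRA1 for GDNF and GFRA2 for neurturin, and the complex activates the kinase RET. KIT binds KITLG (stem cell factor), ERBB4 binds neuregulins, and serotonin neurons of the brainstem are known to carry TrkB and to respond to BDNF. By the study's methods, the neuronal medium contained added BDNF, GDNF, IGF1 and TGF-beta, so these ligands were present in culture whatever the cells transcribed.

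Serotonergic markers were present in both libraries. FEV, a transcription factor of the ETS family that marks serotonin neurons, had 1582 and 910 CPM. TPH2 had 197 and 161 CPM. The summed level of 9 serotonergic markers, of which FEV was the most abundant, was 2922 and 2467 CPM. DDC and MAOB were also lower under the FKO label, while GATA3 (593 and 817 CPM), GATA2 (24.1 and 41.8), LMX1B (33.0 and 71.4), SLC6A4 (21.0 and 43.7) and SLC18A2 (19.2 and 50.3) were higher, so all 9 were seen in both libraries and no single direction held for them. Ratios of FKO over WT are read against a shift of the whole transcriptome. Over the 9680 genes with at least 10 CPM in either library, the median log2 ratio was 0.48, and a relative log2 ratio is the ratio less this median.

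All 9 genes had a higher CPM in the library labelled FKO, as did 72.6% of the 9680 genes, and all 9 exceeded the all-gene median in the main comparison. Over 14 alternative settings that can change a relative ratio this held in all 14 for 6 of them, in 13 for NTRK2 and GFRA1, and in 7 for ERBB4. Their relative log2 ratios ran from 0.15 for ERBB4 to 2.10 for RET, with a median of 0.93. At least 10 CPM in either library was reached by 7 of the 9, the exceptions being BDNF and RET. A gene was counted as past 2-fold when its relative log2 ratio was at least 1 either way and it reached 10 CPM. NTRK3, GFRA2 and KIT, 3 of the 9 genes, were past 2-fold toward the library labelled FKO, where 5.71% of all genes were. None was past 2-fold the other way, where 9.74% of all genes were. The genes that reached 10 CPM did so only in the library labelled FKO for NGFR, GFRA1, GFRA2 and ERBB4, so their count is a description of size. The exact intervals of the libraries were apart, with the higher level under the FKO label, for all 9 genes and for 67.0% of all genes, so their separation is common at this depth.

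**Figure D1:**
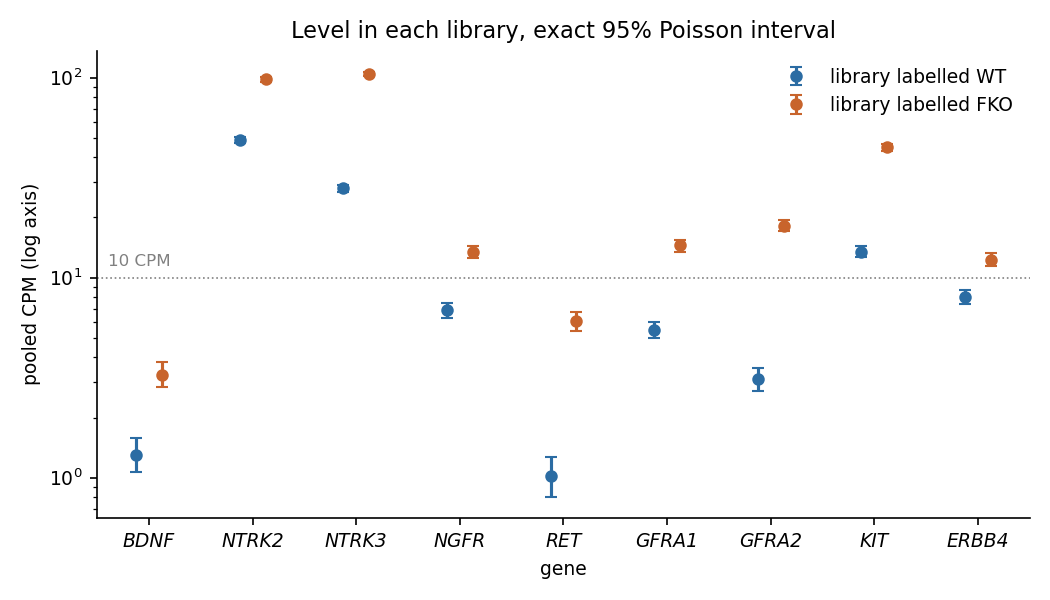
Pooled CPM of the 9 genes (log axis) in the library labelled WT (blue) and the library labelled FKO (orange), with exact 95% Poisson intervals and the 10 CPM limit as a dotted line. In each gene the level is higher in the library labelled FKO, and the intervals of the libraries do not overlap, as in 67.0% of all genes.

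BDNF, the only ligand among the 9, was scarce. The 100 UMIs of the library labelled WT make 1.305 CPM (1.06 to 1.59), and the 190 UMIs of the library labelled FKO make 3.28 CPM (2.83 to 3.78). The relative log2 ratio was 0.85 (0.50 to 1.22). It depended on the setting, at 0.15 with at most 5% mitochondrial UMIs and 0.11 with clusters weighted equally. The highest value was 1.13, with thinned cells. A BDNF UMI was found in 1.32% and 2.26% of cells before thinning. BDNF (ENSG00000176697, chr11:27654893-27722058) overlaps an antisense gene, and the sources used here do not state whether counting used strand, so its counts are uncertain in this respect.

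The neurotrophin receptors differed in the size of their ratios. NTRK2 (ENSG00000148053, chr9:84668551-85027070) had 3748 and 5684 UMIs, or 48.9 and 98.0 CPM. Its log2 ratio of 1.0 (0.94 to 1.06) was 0.53 relative to the median of all genes. NTRK2 was thus higher in the library labelled FKO, but within 2-fold of the general shift. NTRK3 (ENSG00000140538, chr15:87859751-88256768) had 2146 and 6036 UMIs, or 28 and 104.1 CPM. Its log2 ratio was 1.89 (1.82 to 1.97), or 1.42 relative to the median. NTRK3 therefore differed more than NTRK2, and their relative intervals (1.35 to 1.49 and 0.47 to 0.59) did not overlap. NGFR (ENSG00000064300, chr17:49495293-49515017) had 527 and 778 UMIs, or 6.88 and 13.4 CPM, with a relative log2 ratio of 0.49 (0.33 to 0.65). Both NTRK2 and NTRK3 are transcribed into forms with and without the kinase domain, and counts of 3' ends summed per gene do not tell these apart.

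Within the GDNF receptor complex, RET and GFRA2 had the highest ratios of the 9 genes. RET (ENSG00000165731, chr10:43077027-43130351), the signalling kinase, had 78 UMIs or 1.02 CPM (0.80 to 1.27) and 351 UMIs or 6.05 CPM (5.44 to 6.72). GFRA2 (ENSG00000168546, chr8:21690403-21812357), the neurturin co-receptor, had 238 UMIs or 3.11 CPM (2.72 to 3.53) and 1057 UMIs or 18.2 CPM (17.2 to 19.4). Their folds of FKO over WT were 5.95 and 5.87, and their relative log2 ratios were 2.10 (1.74 to 2.47) and 2.08 (1.87 to 2.29). The kinase and this co-receptor thus differed between the libraries by nearly the same amount. GFRA1 (ENSG00000151892, chr10:116056925-116273467), the GDNF co-receptor, differed less, with 420 and 840 UMIs, or 5.48 and 14.5 CPM. Its relative log2 ratio was 0.93 (0.76 to 1.10), below those of RET and GFRA2 without overlap of the intervals. With at most 5% mitochondrial UMIs it was -0.04, so its place above the median of all genes depended on this limit.

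Of the other receptors, KIT was past 2-fold and ERBB4 was close to the median of all genes. KIT (ENSG00000157404, chr4:54657918-54740715) had 1035 and 2603 UMIs, or 13.5 and 44.9 CPM, a relative log2 ratio of 1.26 (1.15 to 1.36). ERBB4 (ENSG00000178568, chr2:211375717-212538841) had 611 and 714 UMIs, or 7.97 and 12.3 CPM. The relative log2 ratio of ERBB4 was 0.15, and its interval (-0.01 to 0.31) included 0. In the other 7 alternative settings ERBB4 lay below the median of all genes, among them -0.13 with up to 20% mitochondrial UMIs and -0.35 with clusters weighted equally.

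Ratios also differed by gene length. Among genes under 25 kb the median relative log2 ratio was -0.44 (3761 genes), and among genes of at least 300 kb it was 0.54 (518 genes). From 25 to 100 kb it was 0.09, and from 100 to 300 kb it was 0.36. NTRK2 (358.5 kb), NTRK3 (397.0 kb) and ERBB4 (1163 kb) are in the longest class, where 22.6% of genes were past 2-fold toward the library labelled FKO. Relative to genes of its own class, NTRK2 stood at -0.01, NTRK3 at 0.88 and ERBB4 at -0.38. NTRK2 thus had the ratio of the median long gene. RET (53.3 kb), KIT (82.8 kb) and GFRA2 (122.0 kb) kept 2.01, 1.17 and 1.72 relative to their classes, and NGFR, the shortest at 19.7 kb, stood at 0.93. Set against length classes, 2 of the 9 genes (GFRA2 and KIT) were past 2-fold, with 5.98% of all genes. Whether reads in introns were counted is not given in the sources used here, and the part of length in the ratios was not tested.

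**Figure D2:**
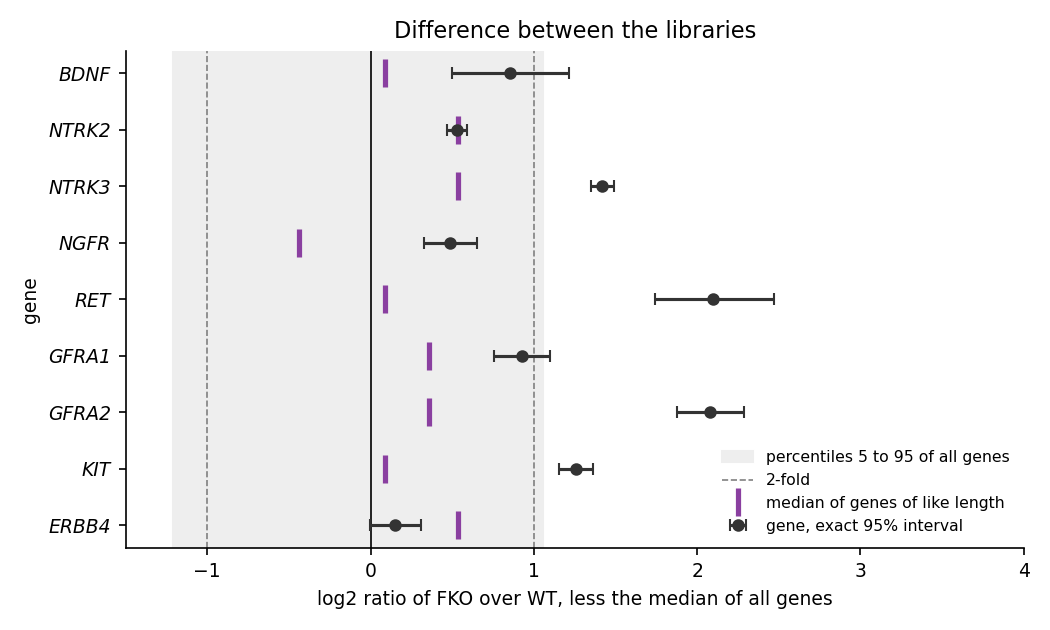
Relative log2 ratio of FKO over WT per gene, with exact 95% intervals (black), the median of genes of like length (purple ticks), 2-fold either way (dashed lines) and percentiles 5 to 95 of all genes (grey band, -1.21 to 1.05). RET, GFRA2, NTRK3 and KIT lie above the band, while NTRK2 lies on its length median and ERBB4 lies below it.

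The promoters of NTRK3 and KIT, which were both past 2-fold, are printed with that of ERBB4, which was not, because these genes are compared below with FEV. FEV binds DNA through an ETS domain, whose core motif is GGAA. Each sequence is from RefSeq on GRCh38.p14, runs 250 bases before to 50 bases after the start in the direction of the gene, and shows GGAA, or TTCC where it lies on the other strand, in capitals. The windows are chr15:88256690-88256989 for NTRK3 (minus strand), chr4:54657707-54658006 for KIT (plus strand) and chr2:212538753-212539052 for ERBB4 (minus strand).
NTRK3: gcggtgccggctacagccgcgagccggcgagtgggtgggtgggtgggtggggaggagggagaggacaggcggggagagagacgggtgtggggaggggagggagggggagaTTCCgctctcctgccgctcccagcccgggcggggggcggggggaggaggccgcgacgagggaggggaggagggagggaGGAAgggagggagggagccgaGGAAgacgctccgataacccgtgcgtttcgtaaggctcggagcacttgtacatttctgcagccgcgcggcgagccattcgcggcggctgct
KIT: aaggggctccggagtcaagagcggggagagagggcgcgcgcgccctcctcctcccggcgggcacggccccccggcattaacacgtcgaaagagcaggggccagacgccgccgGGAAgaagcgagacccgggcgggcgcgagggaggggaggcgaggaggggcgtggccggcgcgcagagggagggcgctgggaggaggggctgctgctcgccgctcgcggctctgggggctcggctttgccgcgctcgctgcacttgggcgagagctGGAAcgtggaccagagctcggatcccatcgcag
ERBB4: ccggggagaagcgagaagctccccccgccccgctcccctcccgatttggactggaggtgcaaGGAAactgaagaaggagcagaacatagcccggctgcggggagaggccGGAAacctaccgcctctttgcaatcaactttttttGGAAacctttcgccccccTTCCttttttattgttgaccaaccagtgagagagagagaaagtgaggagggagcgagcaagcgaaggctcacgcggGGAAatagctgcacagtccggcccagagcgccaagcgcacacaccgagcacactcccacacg
The windows held 3, 2 and 5 copies of GGAA on either strand. Since 95.5% of the 35116 promoters of this length held at least 1 copy, its presence sets none of them apart. The longer ETS form CCGGAA, which contains GGAA, was in the ERBB4 window once and not in those of NTRK3 and KIT, against 17.2% of all promoters. AGATAA, a motif of GATA factors such as the serotonergic GATA3, was in none of the 3 windows and in 10.3% of all promoters. Of the 9 genes, 7 matched a promoter entry and 3 had a single one. A match of letters is a description and not a binding site.

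Detection per cell followed the levels once depth was held equal. Before thinning, a NTRK3 UMI was found in 26.7% and 44.6% of kept cells, and after each cell was thinned to 2000 UMIs in 5.61% and 16.6%. For NTRK2 the shares were 37.8% and 40.6% before thinning and 9.15% and 13.7% after it. The smaller difference in NTRK2 before thinning was seen beside the greater depth of the library labelled WT. ERBB4 was found in more cells labelled WT before thinning (7.92% and 7.22%), and in more cells labelled FKO after it (1.61% and 2.49%). Shares after thinning ran from 0.16% (RET) to 9.15% (NTRK2) with the WT label and from 0.58% (BDNF) to 16.6% (NTRK3) with the FKO label.

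The kept cells of both libraries fell into 7 clusters after integration, built without the 9 genes, the pathway genes, FEV and TPH2. They are called by number and by their leading genes. Cluster 1 is led by STC1, CRH and GAL, cluster 2 by HMX3 and SLC17A8, cluster 3 by GRIN3A and DKK2, and cluster 4 by LRRC77P and CALB1. Cluster 5 is led by SST, LHX9 and SLC17A6, cluster 6 by COL1A2, COL1A1 and TOP2A, and cluster 7 by ATF3 and CALCB. FEV was low in clusters 5 (300.4 and 339 CPM in the libraries labelled WT and FKO) and 6 (274.5 and 290 CPM), and it lay between 849 and 2043 CPM in the others. Clusters 5 and 6 thus had the least FEV in both libraries. Cells in each cluster ran from 80 to 2422 in the library labelled WT and from 134 to 2334 in the library labelled FKO. Over the 63 pairs of gene and cluster, the CPM was higher toward the FKO label in 57, where 69.8% to 72.3% of all genes in each cluster were, and 55 exceeded the all-gene median of their cluster.

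KIT had the same leading cluster in both libraries, clear of the next. It was highest in cluster 4, with 32.9 (29.4 to 36.6) and 116.6 CPM (109 to 125). Cluster 1 came next with 14.4 and 50.7 CPM, and the intervals of these clusters did not overlap in either library. Cluster 4 held 32.3% and 33.6% of all KIT UMIs, so nearly the same part of KIT came from these cells in each library, while the level there differed by a log2 ratio of 1.83 (1.64 to 2.01). After thinning, cluster 4 held a KIT UMI in 6.85% and 19.4% of its cells. In cluster 6, low in serotonergic transcripts, it was found in 0 of 80 cells and in 1.26% of 239 cells. The 80 cells were not without KIT UMIs, since before thinning they had 23 UMIs or 12.8 CPM (8.09 to 19.1), the third highest of the 7 clusters under the WT label. The part of RNA from other cells in this count was not tested. Median depths before thinning were 11302 and 6858.5 UMIs in cluster 4 and 22957.5 and 8843.5 UMIs in cluster 6.

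GFRA2 and RET had their highest levels in cluster 1 under the FKO label. GFRA2 had 4.32 (3.67 to 5.05) and 28.7 CPM (26.6 to 31.0) there. With the FKO label this was above every other cluster, the next being cluster 3 with 14.7 CPM (12.4 to 17.3). With the WT label cluster 5 had 4.23 CPM, and the order of clusters 1 and 5 was not resolved. RET had 1.24 (0.90 to 1.66) and 9.03 CPM (7.83 to 10.4) in cluster 1, and the next level with the FKO label, 6.65 CPM in cluster 7 (7 UMIs), overlapped it. Cluster 1 held 57.7% and 58.1% of the RET UMIs, and 66.0% and 61.4% of the GFRA2 UMIs, beside 47.5% and 39.0% of all UMIs. NGFR (58.4%), NTRK2 (52.7%) and NTRK3 (52.4%) had like shares in that cluster with the WT label. With the FKO label their shares were lower than those of RET and GFRA2, at 35.9%, 42.3% and 51.6%. RET of the library labelled WT had its highest level in cluster 5, 2.58 CPM, but rested on 4 to 14 UMIs in clusters 2 to 5, with 1 in cluster 7 and 0 in cluster 6, so its order over clusters was not resolved there.

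GFRA1 had a different distribution from GFRA2. With the WT label it was highest in cluster 5, at 19.1 CPM (15.6 to 23.2), followed by cluster 2 at 8.58 CPM (7.24 to 10.1). With the FKO label it was highest in cluster 6, at 70.8 CPM (61.2 to 81.5), followed by cluster 5 at 36.7 CPM and cluster 2 at 27 CPM. In cluster 1, where GFRA2 was highest, GFRA1 was at 3.16 and 4.60 CPM. With the FKO label the co-receptors were thus highest in different clusters, and with the WT label this was not resolved. ERBB4 was high where GFRA1 was, in cluster 2 (17.9 and 38.2 CPM) and cluster 5 (19.0 and 27.1 CPM), against 2.34 and 3.67 CPM in cluster 1. In cluster 6 ERBB4 went the other way, with 37.2 (28.8 to 47.2) and 9.54 CPM (6.23 to 14.0).

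Among the neurotrophin genes, BDNF was highest in cluster 5 in both libraries, with 7.91 CPM (5.73 to 10.7) and 11.9 CPM (9.58 to 14.7). For the library labelled WT this was 43 of its 100 UMIs, and the interval overlapped that of cluster 6 (9 UMIs). With the FKO label it was 89 of 190 UMIs, and the interval overlapped that of cluster 7 (5 UMIs). NTRK2 was found in every cluster, from 30.7 CPM in cluster 2 to 178.6 CPM (160 to 199) in cluster 6 of the library labelled WT, and from 66.7 CPM in cluster 2 to 137.9 CPM (130 to 147) in cluster 5 of the library labelled FKO. Cluster 6 was the only cluster in which NTRK2 was lower in the library labelled FKO, at 77.0 CPM (67.0 to 88.2), a log2 ratio of -1.21 (-1.47 to -0.96). NTRK3 was highest in cluster 1 of the library labelled FKO, at 137.9 CPM (133 to 143), with cluster 4 next at 120.9 CPM (113 to 129). With the WT label it was highest in cluster 4 at 42 CPM (38.1 to 46.2), and cluster 3 at 35.7 CPM overlapped it. Its log2 ratio ran from -0.03 in cluster 6 to 2.37 in cluster 5. NGFR varied less, between 4.35 and 9.46 CPM in clusters 1 to 5 and 7 of the library labelled WT and between 11.4 and 16.2 CPM in those of the library labelled FKO. Cluster 6 was outside these ranges, with 2.77 CPM (5 UMIs) and 26.0 CPM (20.3 to 32.9), although its interval with the FKO label overlapped that of cluster 7 (17 UMIs).

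The highest cluster was the same in both libraries for BDNF, GFRA2 and KIT, 3 of the 9 genes. This depended on the clustering. Without integration only BDNF of these 3 kept it, among 3 clusters, and with 15 dimensions GFRA2 lost it. Over the 7 clusters, Spearman's rho between the libraries was 0.93 for BDNF, 0.79 for GFRA1, 0.75 for GFRA2 and 0.61 for KIT. It was lower for RET (0.46), ERBB4 (0.43), NTRK2 (0.36) and NTRK3 (0.36), and -0.29 for NGFR. These describe 7 points that share the clustering. Across the 14 profiles of cluster and library, on log2(CPM + 1), NTRK3 was most like SRGAP1 (Pearson's r 0.955), BCL2 (0.948) and RRP8 (0.944). GFRA2 was most like NBL1 (0.962), PCYOX1 and NEK1, and NGFR was most like HMGXB3 (0.964), UBE3D and SLC27A1. KIT was most like AKAP7 (0.885), PPP4R1 and LINC02249, ERBB4 like SOX1 (0.884), LINC00461 and CD47, GFRA1 like SS18 (0.901), COQ8B and TCF4, and NTRK2 like TMEM170A (0.923), RRAGD and CAMK2D. BDNF and RET were not compared in this way. Among the other genes themselves the highest likeness was between NTRK3 and GFRA2 (0.828) and between NTRK3 and KIT (0.785), while NTRK3 and ERBB4 stood at -0.22. Library and depth differ along these profiles, and both enter the likeness.

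Cluster 6 differed between the libraries in its cells with a SOX10 UMI. SOX10, a transcription factor of neural crest, Schwann cells and oligodendrocyte precursors, had 0 UMIs among all kept cells labelled WT and 398 among those labelled FKO. Of the 240 cells labelled FKO in cluster 6, 125 had a SOX10 UMI, against 0 of the 80 cells labelled WT, which allows a share of up to 4.51% by the exact interval. This limits cells with a SOX10 UMI and not cells with the transcript. In these cells, chosen by SOX10 after its values were seen, GFRA1 had 118 UMIs or 82.5 CPM (68.3 to 98.9) and NGFR had 56 UMIs or 39.2 CPM (29.6 to 50.9). ERBB3, a neuregulin receptor of glial lineages, had 532 UMIs or 372 CPM in them. GDNF, the ligand of GFRA1, had 35 of the 53 UMIs of the whole library in these cells, at 24.5 CPM (17.1 to 34.0). RET had 1 UMI there. NTRK2 was lower in the SOX10 cells than in the rest of the cluster, at 41.3 CPM (31.4 to 53.2), and ERBB4 had 7 UMIs.

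The other cells of cluster 6 differed from these. Of those without a SOX10 UMI, 76 cells labelled FKO had at least 3 UMIs of the collagen gene COL1A1, and in them GFRA1 was at 58.5 CPM (43.9 to 76.6), an interval that overlaps that of the SOX10 cells, NTRK2 at 106 CPM (85.9 to 129.5), NGFR at 12.2 CPM and GDNF at 0 UMIs. In the 78 cells labelled WT with neither marker, NTRK2 was at 180.1 CPM (161 to 201) and ERBB4 at 37.8 CPM (29.3 to 48.0). The 39 cells labelled FKO with neither marker had NTRK2 at 140.5 CPM (106 to 183) and ERBB4 at 40.9 CPM (23.4 to 66.4). In cells with neither marker the intervals of the libraries overlapped for NTRK2 and for ERBB4. These cells were not alike otherwise. GFRA1 was at 8.47 (4.74 to 14.0) and 56.2 CPM (35.2 to 85.1) in them, ERBB3 at 0.56 and 92.0 CPM, and the cycling gene MKI67 at 189.7 and 577 CPM. The part of the mixture of cells in the lower NTRK2 and ERBB4 of cluster 6 was not tested. FEV was at 166 CPM in the SOX10 cells and 504 CPM in the collagen cells, and the part of RNA from other cells in these values was not tested.

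Marker lists of other cell types give the setting of these values, with a marker counted as detected above 3 UMIs. Of the 5 oligodendrocyte precursor markers 3 and 5 were detected, with sums of 1.38 and 15.6 CPM, SOX10 at 0 with the WT label, and OLIG2 and SOX10 the most abundant. The rise of this list mixed groups of cells, since 86.4% of the SOX10 UMIs labelled FKO lay in the SOX10 cells of cluster 6 and 85.6% of the PDGFRA UMIs in its collagen cells. All 7 mesenchymal markers were detected in each library, with sums of 38.4 and 250.2 CPM, and LUM and COL1A2 the most abundant. Both lists were thus higher under the FKO label. Without cluster 6, the relative log2 ratio of GFRA1 was 0.64, and without clusters 5 and 6 it was 0.37, against 0.93 over all kept cells. NTRK3, GFRA2 and KIT stayed past 2-fold in both settings. NTRK3 was at 1.48 in each, and KIT at 1.31 and 1.35.

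All 6 cycling markers (HMGB2 the most abundant) summed to 85.8 and 97.8 CPM, and all 8 floor plate markers (SPON1) to 54.4 and 76.5 CPM. Within the cycling list MKI67, TOP2A and CENPF were higher under the FKO label, and HMGB2, CCNB1 and NUSAP1 were lower. All 6 radial glia or progenitor markers (VIM) summed to 986 and 1139 CPM, and all 4 glutamatergic markers (SLC17A8) to 169 and 137 CPM. The progenitor sum follows VIM (715.7 and 916.3 CPM), with HES1 and SLC1A3 also higher under the FKO label. SOX2 (107.2 and 84.9), NES (70.8 and 53.5) and FABP7 (80.6 and 69.7) were lower. The glutamatergic sum follows SLC17A8 (165.6 and 117.8 CPM), while the other 3 were higher under the FKO label, with LHX1 at 2.01 and 11.1, SLC17A6 at 1.58 and 7.90 and SLC17A7 at 0.07 and 0.36 CPM. The 3 GABAergic markers (GAD1) were detected at 2.22 and 4.47 CPM in sum. SLC17A8 was highest in cluster 2, at 575 and 738.5 CPM, where FEV was also highest. Of 4 catecholaminergic markers only TH was detected, with sums of 16.8 and 7.42 CPM and SLC6A2 at 0 with the WT label. Of 7 motor neuron markers (ISL1) 5 and 4 were detected, with sums of 4.33 and 2.66 CPM and TBX20 at 0 with the FKO label. Of 4 endothelial markers (CLDN5) 2 and 2 were detected, with sums of 0.76 and 1.02 CPM, and CDH5 was at 0 with the WT label and PECAM1 with the FKO label. The part of these lists in the ratios of the 9 genes was not tested.

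Co-detection asks whether a receptor UMI lay in the same cells as a FEV UMI. A FEV UMI alone does not show a serotonergic cell, since after thinning it was also found in 31.3% and 23.4% of cells in cluster 6 and in 27.7% and 28.1% of those in cluster 5. Since depth alone makes UMIs of any pair of genes coincide, thinned cells are compared here, and thinning left out 43 cells labelled WT and 116 labelled FKO. FEV was then detected in 88.9% of 5703 WT-labelled cells (5071) and 76.2% of 6863 FKO-labelled cells (5229). KIT was found more often beside FEV. Of FEV cells labelled WT 2.58% (2.16% to 3.06%) held a KIT UMI, against 0.47% (0.10% to 1.38%) of the others. With the FKO label these shares were 8.24% (7.51% to 9.02%) and 5.08% (4.07% to 6.26%). NTRK3 followed in the library labelled FKO, with 17.5% (16.5% to 18.6%) against 13.5% (11.9% to 15.3%), while its shares of 5.72% and 4.75% in the library labelled WT overlapped. The direction of KIT held in all 7 alternatives in each library, but its intervals were apart in only 2 of them with the WT label and 4 with the FKO label. With at least 2 FEV UMIs the WT-labelled shares were 2.48% and 1.97%, and with doublets kept 2.60% and 1.39%.

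ERBB4 and GFRA1 were found more often in cells without FEV. In cluster 1, where both were low, ERBB4 was found in 0.50% and 0.56% of thinned cells and GFRA1 in 0.58% and 0.99%, at median depths of 14147 and 8035 UMIs before thinning. ERBB4 was in 1.38% (1.08% to 1.74%) of FEV cells and 3.48% (2.19% to 5.22%) of the other cells labelled WT, and in 2.10% (1.73% to 2.53%) and 3.73% (2.87% to 4.77%) of those labelled FKO. GFRA1 was in 1.82% (1.47% to 2.22%) and 4.65% (3.68% to 5.79%) of the cells labelled FKO. NTRK2 was in 8.52% (7.77% to 9.32%) of FEV cells and 14.2% (11.6% to 17.2%) of the other cells labelled WT, and in 13.4% and 14.6% of those labelled FKO, where the intervals overlapped. The shares of BDNF, NGFR, RET and GFRA2 in FEV cells and in other cells overlapped in both libraries, as did those of GFRA1 in the library labelled WT. These calls depended on the setting, and other calls were gained. With thinning to a greater depth, which left 229 and 504 cells without FEV, intervals were also apart for NTRK3 (12.3% of FEV cells and 6.55% of the others) and GFRA1 (2.27% and 6.55%) with the WT label, and for BDNF (0.89% and 3.37%), NGFR (5.98% and 9.52%) and GFRA2 (8.83% and 5.16%) with the FKO label. GFRA1 with the WT label was also apart with doublets kept. Intervals stayed apart in the same direction in 2 of 7 alternatives for ERBB4 in each library, in 4 for GFRA1 and NTRK3 with the FKO label, and in 3 for NTRK2 with the WT label. None of these was apart with thinning to 1000 UMIs or with at most 5% mitochondrial UMIs. Without thinning, FEV cells were deeper than the others, with medians of 12506 and 7516.5 UMIs in the library labelled WT and 7022.5 and 5722 in that labelled FKO. The unthinned shares of NTRK2 then turned to 38.1% in FEV cells and 26.7% in the 120 others labelled WT, and those of KIT were 13.2% and 3.33%, and 23.5% and 6.70% in the library labelled FKO.

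Part of these differences lay between clusters. Clusters 5 and 6 held 42.1% and 8.70% of the thinned cells without FEV in the library labelled WT, and 30.5% and 11.2% of those in the library labelled FKO. When both clusters were left out, a setting chosen after the data had been seen, KIT was in 8.36% of FEV cells and 7.45% of the other cells labelled FKO, and in 2.65% and 0.96% of those labelled WT, where a difference of 1.69 of 2.11 points remained with 311 in place of 632 cells without FEV. NTRK3 was in 17.6% and 18.2%, ERBB4 in 1.99% and 2.31%, and GFRA1 in 1.53% and 1.15% of the cells labelled FKO. All of these intervals overlapped. The exception was NTRK2 in the library labelled WT, which remained lower in FEV cells, at 8.43% against 13.5% of 311 cells without FEV. Outside clusters 5 and 6, a difference by FEV in the other genes was thus not detectable at this depth. Over all kept cells, only 120 labelled WT and 627 labelled FKO had no FEV UMI before thinning, against 632 and 1634 after it. Most thinned cells without FEV had thus held a FEV UMI, so the overlap does not show that the genes are independent of FEV. Deeper thinning was not done without these clusters.

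RET signals with a co-receptor, which may lie in the same cell. Of 311 cells labelled FKO with a RET UMI before thinning, 66 held GFRA2 only, 19 held GFRA1 only, 6 held both and 220 (70.7%) held neither. Of 76 RET cells labelled WT, the numbers were 4, 7, 1 and 64 (84.2%). GFRA2 was found in 23.1% (18.6% to 28.2%) of RET cells labelled FKO and in 12.1% (11.3% to 12.9%) of the others, at median depths of 9999 and 6864 UMIs. GFRA1 was in 8.04% and 7.54%. Before thinning RET thus coincided with GFRA2 and not measurably with GFRA1 under the FKO label, among cells that also differed in depth. This was not particular to GFRA2. RET cells also more often held NTRK3 (65.6% against 43.6%), KIT (35.05% against 21.3%) and NTRK2 (50.8% against 40.2%) before thinning. The intervals overlapped for NGFR, BDNF and ERBB4. Within cluster 1 the shares of GFRA2 were 31.8% (25% to 39.2%) in RET cells and 21.4% (19.7% to 23.2%) in the others. After thinning, 74 cells labelled FKO had RET and 2 of these had GFRA2 (2.70%), against 3.21% of the others, so no coincidence was detectable at that depth. GFRA2 was in 10.2% of GFRA1 cells labelled FKO and 12.7% of the others before thinning, and in 0.58% and 3.27% after it, differences that their intervals did not resolve. RET cells labelled FKO more often held NTRK3 after thinning, 28.4% (18.5% to 40.1%) against 16.4% (15.6% to 17.4%). This was not particular to RET, since NTRK3 was also in 22.7% (17.4% to 28.8%) of GFRA2 cells and 20.8% (17.4% to 24.6%) of KIT cells, above the other cells of each comparison (16.4% and 16.2%), and in only 7.60% (4.11% to 12.7%) of GFRA1 cells against 16.8%.

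Other genes of these pathways were taken from 7 lists, of which 63 genes reached 10 CPM in either library. Of these, 9 were past 2-fold toward the library labelled FKO and 5 toward that labelled WT, beside 5.71% and 9.74% of all 9680 genes. The median relative log2 ratio of the 63 was 0.46. Of the 9, SORL1, ERBB3, NRG3 and GAB1 reached 10 CPM only under the FKO label, and of the 5 EGR1 only under the WT label, so these counts are a description of size. With ratios set against length classes, the counts were 5 and 1, and the genes were not the same. Of the 9 only SORL1 and ERBB3 (4.69) were still past 2-fold, and HBEGF (1.20), SHC1 (1.06) and DOK4 (1.06), named after their values were seen, were added.

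The ligands of the lists differed in abundance. Some had few UMIs, while others had more, such as HBEGF (572 and 1017 UMIs) and NRG3 (434 and 974). The ligands in this paragraph, apart from NRG1, were chosen for their role or level after their values had been seen. In the neurotrophin list NTF3 had 3 and 6 UMIs, and NTF4 had 4 and 4. KITLG, the ligand of KIT, had 129 and 245 UMIs or 1.68 and 4.23 CPM. It was highest in cluster 5, at 13.8 and 18.4 CPM, the latter overlapped by cluster 6 (17.6 CPM), and was at 0.20 and 1.07 CPM in cluster 4, where KIT was highest, so the highest clusters of ligand and receptor differed. KIT was at 4.79 and 22.2 CPM in cluster 5, and the part of RNA from other cells in these values was not tested. NRTN, which binds GFRA2, had 45 and 110 UMIs. NRG1, a ligand of ERBB4 and the gene with the highest level of the ERBB list, had 26.2 and 38.4 CPM, a relative log2 ratio of 0.08.

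In the neurotrophin list 5 genes were past 2-fold. The sortilin family members SORL1 (3.18 and 16.8 CPM, relative log2 ratio 1.92), SORCS3 (10.9 and 34.9 CPM, 1.20) and SORCS1 (34.4 and 107.5 CPM, 1.17) were the 3 genes of the neurotrophin list past 2-fold toward the library labelled FKO, out of 10 that reached 10 CPM. BEX1 (1167 and 635 CPM, -1.35) and BEX3 (2083 and 1366 CPM, -1.08), which bind the intracellular part of NGFR, were past 2-fold toward the library labelled WT. Other genes of these kinds were within 2-fold, such as SORT1 (0.51) and MAGED1 (-0.12), both named after their values were seen. Relative to length classes SORL1 alone of the 5 was past 2-fold (1.57), with SORCS1 at 0.63, SORCS3 at 0.66, BEX1 at -0.91 and BEX3 at -0.64. In the GDNF list NCAM1, an alternative GDNF receptor that works with GFRA1, had 279.5 and 905 CPM (1.22), and it was 1 of 2 genes at 10 CPM. Relative to its length class it was within 2-fold (0.68). In the ERBB list ERBB3 (0.33 and 12.5 CPM, 4.78) and the ligand NRG3 (5.66 and 16.8 CPM, 1.09) were past 2-fold among 6, and NRG3 was not relative to its class (0.56). Cluster 6 held 580 of the 724 ERBB3 UMIs labelled FKO, or 80.1%.

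In the list of other receptor tyrosine kinases none of the 6 genes that reached 10 CPM was past 2-fold, and all 6 lay above the median of all genes. IGF1R, the receptor of an added factor and the gene with the highest level of that list, had 32.0 and 77.9 CPM, a relative log2 ratio of 0.81. Among TGF-beta, IGF and cytokine receptors, BMPR2 (47.4 and 147 CPM, 1.16) and IGF2R (18.4 and 53.0 CPM, 1.05) were past 2-fold, 2 of 7, but not relative to their length classes (0.80 and 0.70). Among 27 adaptors and feedback inhibitors at 10 CPM, GAB1, a docking adaptor, was past 2-fold toward the library labelled FKO (3.98 and 13 CPM, 1.24). SPRY2, an inhibitor induced by receptor signalling, was past it the other way (19.8 and 13.6 CPM, -1.02), and GRB2, with the highest level, was at -0.73. Relative to their length classes GAB1 (0.88) and SPRY2 (-0.58) were within 2-fold. Of the genes at 10 CPM, 6 of the 7 TGF-beta, IGF and cytokine receptors and 19 of the 27 adaptors and inhibitors lay above the median of all genes.

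Of the response genes of these receptors, all 5 that reached 10 CPM were below the median of all genes, with a median relative log2 ratio of -0.87. VGF, a secreted protein induced by neurotrophins, had 344 and 214 CPM (-1.16). EGR1, an immediate early gene, had 15.8 and 9.80 CPM (-1.17). Both were past 2-fold. FOS was level between the libraries at 30.8 and 30.7 CPM (-0.48), and below 10 CPM NR4A1 had 83 and 219 UMIs (1.33) and FOSB had 1 and 23, while ARC had 243 and 113 UMIs (-1.18) and JUNB had 683 and 417 (-0.78), all named after their values were seen. The part of dissociation and sorting before capture in these levels was not tested. VGF, EGR1 and FOS are short genes, of 3.09, 3.83 and 3.46 kb, in a length class with a median of -0.44. Relative to this class they stood at -0.72, -0.73 and -0.04, so FOS lay close to the median of genes of like length. With length classes, 1 list gene, the adaptor DOK5 (-1.10, named after its value was seen), was past 2-fold toward the WT label.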

How the data were processed

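Counts were deposited by the authors as raw UMIs per gene and barcode, made with Cell Ranger 7.1.0 per the file headers (7.0 and GRCh38 in the submitters' processing notes), and the authors had called the barcodes. Kept barcodes had 1000 or more UMIs, 500 or more genes and no more than 10% mitochondrial UMIs. The highest Scrublet scores (scanpy 1.11.5), 0.8% of barcodes per 1000 barcodes, were removed as doublets. This set rate marked 977 and 620 barcodes, while the tool's own threshold called 1 and 0. UMIs were summed per library and scaled to CPM. Ratios were read less the median of genes with at least 10 CPM in either library, 3 counts stood in for a 0, and gene lengths came from GENCODE 29, which matched 99.5% of these genes. Cells were integrated in Seurat 5.3.0 (R 4.3.3) by canonical correlation, with 2000 features and 30 dimensions, aiming at 8 clusters. Clusters needed 50 cells of each library. Exact intervals follow Poisson for a count, Clopper-Pearson for a share, and the binomial split of both libraries' UMIs for a ratio (scipy 1.17.1, Python 3.11.15), at 95%. Named genes are the 9 members, the highest and at most 4 genes past 2-fold in each direction per list, the 3 genes nearest each member and the markers. The members and lists were chosen with earlier results of these data known. Alternatives covered filters, depth, cells used, the shift, the minimum level, the fold, co-detection and clustering. Protein sequences were not used here. Some genes of the lists, and a marker list that holds such a gene, are not reported here.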

Additional observations from a re-analysis of the deposited data

How the results depend on the processing

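RET and GFRA2 kept a relative log2 ratio past 1 in all 14 alternatives that can change a relative ratio (1.44 to 2.37 and 1.72 to 2.42), and NTRK3 and KIT in 13 each (0.88 to 1.64 and 0.98 to 1.42). NTRK3 was at 0.88 with the shift taken per class of gene length, and KIT at 0.98 with no minimum CPM. NGFR ran from 0.21 to 0.93, BDNF from 0.11 to 1.13, GFRA1 from -0.04 to 1.17, NTRK2 from -0.01 to 0.69 and ERBB4 from -0.51 to 0.31. Alternatives without cluster 6, without clusters 5 and 6 and with length classes were chosen after seeing the data.

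With no shift taken off, 5 of the 9 genes were past 2-fold, their median was 1.40, and 29 list genes lay past 2-fold higher and 0 lower. Of all genes, 20.8% were past 2-fold higher in that setting, against 5.71% in the main one, so these counts rose with the general shift. The median was 1.09 with doublets kept, 1.17 with thinned cells, 0.78 in cells with a FEV UMI, 0.81 in cells with a TPH2 UMI, 1.15 with clusters weighted equally, 1.09 with the shift from genes of at least 50 CPM and 0.65 with no minimum CPM, against 0.93. List genes higher and lower numbered 15 and 8 at 2 CPM or more, 26 and 10 at 1.5-fold, and 5 and 1 with length classes. At 1.5-fold the looser limit lets more genes count. The 2 CPM setting changed both the level limit and the shift (0.55 in place of 0.48), and elsewhere the cause was not tested.

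More of the 9 genes were found in a larger share of FEV cells labelled WT without thinning (5) and with at most 5% mitochondrial UMIs (7) than in the main comparison (3). The difference of NTRK2 there turned from -5.72 points to 11.4 without thinning and 1.65 with the 5% limit. That limit left 318 thinned cells labelled WT, of which 64 were without FEV. The difference of ERBB4 turned from -2.10 to 0.0125 with thinning to 1000 UMIs. With the FKO label and without clusters 5 and 6, NTRK3 turned from 4.01 to -0.52 and GFRA1 from -2.83 to 0.37. Without integration 5 genes, in place of 3, had the same highest cluster in both libraries, among 3 clusters with 50 cells of each, but GFRA2 and KIT were no longer among them. With 15 dimensions GFRA2 was not either. The causes were not tested.

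No paired analysis was possible because each genotype has 1 library. Genotype, clone, culture (with the dose of purmorphamine, if it differed), capture, depth and mitochondrial content cannot be told apart. Depth limits RET (78 and 351 UMIs) and BDNF (100 and 190 UMIs) most, and a cell thinned to 2000 UMIs shows 1 UMI as 500 CPM, so an undetected transcript in a cell is not an absent one. Filters kept 52.0% and 79.3% of barcodes. The mitochondrial limit alone took 10610 barcodes to 6385 with the WT label and 8588 to 7573 with the FKO label, and the median mitochondrial share of kept cells was 7.82% and 5.33%. At a limit of 5% GFRA1 went from 0.93 to -0.04 and BDNF from 0.85 to 0.15.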

Other observations

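The cells of cluster 6 held other growth factor genes. In its 125 cells labelled FKO with a SOX10 UMI, CSPG4, a proteoglycan of oligodendrocyte precursors and pericytes, was at 69.3 CPM, and KITLG was at 20.3 CPM, while PDGFRA, another precursor marker, had 6 UMIs. In its 76 cells labelled FKO with collagen UMIs and no SOX10 UMI, the receptors PDGFRA and EGFR were at 85.1 and 53.0 CPM. EGFR had 9 UMIs in the SOX10 cells, and in the collagen cells CSPG4 was at 21.0 CPM and KITLG at 8.84 CPM. These groups and genes were chosen after their values had been seen. In transcript level, the SOX10 cells and the collagen cells thus differed in PDGFRA, EGFR and CSPG4, while the intervals of KITLG and GFRA1 overlapped. The part of RNA from other cells was not tested.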
